A study of Rattus norvegicus with 15 samples.

Results

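Esm1, Vegfa, Flt1, Kdr, Fgf2 and Fgfr1 form a small set of genes of blood vessel growth, read here in rat mesenteric arteries by 12 probe sets of an Affymetrix rat array. They are 6 of 4736 named genes, and 12 of 8740 probe sets once array controls are left out. The members were taken by their gene symbol in the platform annotation, and the set was proposed with earlier results of these data in view. They were chosen by measured signal in that sense, Esm1 having been named for its log2 signal in collateral against control arteries, so the values below describe 15 arrays and are not independent evidence. One strain was SHR, the spontaneously hypertensive rat, inbred for high blood pressure, and the other WKY, the Wistar Kyoto rat, its normotensive relative. In each strain, collateral arteries, which carry added flow because adjacent arteries had been occluded, were set beside control arteries. There were 4 arrays of SHR collateral, 4 of SHR control, 4 of WKY collateral and 3 of WKY control arteries. The labels used here give no age, sex or time after occlusion and do not say whether each array is a separate animal, so every error and p-value here reflects the spread among these samples alone, which may be technical. The series asks why collaterals grow less well in SHR.

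Vascular endothelial growth factor A (Vegfa) is secreted by many cell types and binds receptor tyrosine kinases on endothelial cells. Kdr, also called VEGFR2, passes on most of its growth signal, and Flt1, also called VEGFR1, binds the ligand tightly but signals weakly and can act as a trap, in part as a soluble form. Fibroblast growth factor 2 (Fgf2) acts on endothelial and smooth muscle cells through receptors such as Fgfr1, with heparan sulphate as a co-factor. Esm1, also called endocan, is a proteoglycan secreted by endothelial cells, is induced by VEGF in cultured endothelium and marks tip cells of growing vessels. Esm1 is therefore read as a downstream gene, and the other 5 as ligands and receptors.

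Of the 12 probe sets, 8 passed the filter on low signal, which asked for a signal at or above the array's own 40th percentile on at least 3 arrays, and every member gene kept at least 1. The 4 that did not pass were Vegfa L20913_s_at and M32167_g_at, Fgf2 X07285cds_s_at and Fgfr1 S54008_i_at. S54008_i_at lay below the array's 20th percentile on 14 of 15 arrays and M32167_g_at on 9. Of the 8 that passed, Fgfr1 AF000144_at reached the 40th percentile on the fewest arrays, 8, and Flt1 D28498_at and Fgf2 M22427_at on 9 each. Just outside the filter, L20913_s_at and X07285cds_s_at reached that percentile on 2 each. Esm1 rc_AI233219_at was the brightest, between the 66.8th and the 95.9th percentile of its array. The other 7 tested probe sets lay between the 12.1th and the 79.5th percentile, so they are dim to middling on this array.

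One array, SHR collateral 3, stood apart from the rest. Its Spearman correlation with the other 14 over the 6512 tested probe sets was 0.496 to 0.657, and among those 14 it was 0.805 to 0.931. The 20th percentile of its signals stood at 171.2 (43.4 to 83.3 on the others), and its 9 spike-in probe sets, which read RNA added in fixed amounts, averaged 354583 (26654 to 130880 on the others). Most member differences that use SHR collaterals are also given without it. The gene list, pathway and marker values below include it and were not recomputed without it. All 10 smooth muscle genes measured passed the filter, with a summed signal of 104145 to 545628 in SHR collateral, 212368 to 446732 in SHR control, 319777 to 512082 in WKY collateral and 293784 to 425929 in WKY control arteries. All 9 endothelial and all 10 fibroblast genes measured passed as well, as did 7 of 9 macrophage and 7 of 9 adipocyte genes and 6512 of all 8740 probe sets, so passing does not by itself identify the tissue. In whole arteries, fewer cells of a type and less RNA per cell cannot be told apart.

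The promoters of Esm1 and Flt1 are shown because these were the 2 members whose signals did not overlap between SHR and WKY collaterals. Each window runs from 250 bases before to 50 bases after the gene's annotated start, from RefSeq on the rat build GRCr8, which is the reference strain and neither SHR nor WKY. Capitals mark matches on either strand to 7 motifs. The TATA box was searched as TATAAA and the AP-1 site of Fos and Jun as TGACTCA. The cAMP response element was searched as TGACGTCA and the GC box of Sp1 as GGGCGG. The E-box was searched as CACGTG and the core of the hypoxia response element as ACGTG, which also lies inside that E-box. The site of ETS factors was searched as GGAAGT.
Esm1 (chr2:46609003-46609302, plus strand): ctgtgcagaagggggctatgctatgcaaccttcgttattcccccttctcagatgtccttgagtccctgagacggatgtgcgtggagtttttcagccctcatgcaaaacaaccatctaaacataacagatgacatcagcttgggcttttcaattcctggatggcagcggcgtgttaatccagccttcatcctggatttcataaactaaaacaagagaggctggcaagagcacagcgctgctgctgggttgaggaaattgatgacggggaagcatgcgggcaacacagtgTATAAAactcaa
Flt1 (chr12:12333180-12333479, plus strand): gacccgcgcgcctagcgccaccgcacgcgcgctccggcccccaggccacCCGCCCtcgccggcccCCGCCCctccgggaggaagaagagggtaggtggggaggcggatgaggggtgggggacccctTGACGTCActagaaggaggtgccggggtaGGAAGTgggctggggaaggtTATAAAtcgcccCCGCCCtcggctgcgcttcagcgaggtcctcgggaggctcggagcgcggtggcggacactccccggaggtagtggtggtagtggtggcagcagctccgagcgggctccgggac
The Esm1 window had a G and C content of 48.7%, with 8 CpG dinucleotides, and held 1 of the 7 motifs, a TATAAA at position 38 after the annotated start. The Flt1 window had 72.7%, with 31 CpG dinucleotides, and held a TATAAA, a TGACGTCA and a GGAAGT once each and GGGCGG 3 times. TGACGTCA occurs in 1.8% of 33465 promoter windows of the same length, GGAAGT in 22.6%, TATAAA in 14.2% and GGGCGG in 33.1%. Promoter windows were found for 5 of the 6 members, Fgfr1 being the one without an entry. Of the others, the window at the upstream start of Vegfa held GGGCGG 3 times, the Kdr window GGGCGG and GGAAGT once each and the Fgf2 window ACGTG once, which 19.3% of windows hold. A match is a stretch of letters and was not tested as a binding site.

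Esm1 showed its highest signals in WKY collaterals. The MAS5 signal, a linear brightness per probe set scaled by the authors to a common array level, was 2018, 2924, 1854 and 1573 in SHR collateral arteries, against 642, 1384, 963 and 1884 in SHR control arteries. It was 7820, 3859, 3324 and 8275 in WKY collateral arteries, against 2364, 1029 and 1003 in WKY control arteries. All 4 WKY collaterals lay above all 3 WKY controls, while in SHR the collateral with the lowest signal lay below the control with the highest. On the log2 scale the group means were 10.99 ± 0.38 in SHR collateral (SD, n = 4), 10.14 ± 0.67 in SHR control (n = 4), 12.39 ± 0.68 in WKY collateral (n = 4) and 10.39 ± 0.70 in WKY control arteries (n = 3). Ordered from high to low, WKY collaterals came first, then SHR collaterals, WKY controls and SHR controls. Only the first step in that order, WKY over SHR collaterals, had no overlap of single arrays.

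**Figure D1:**
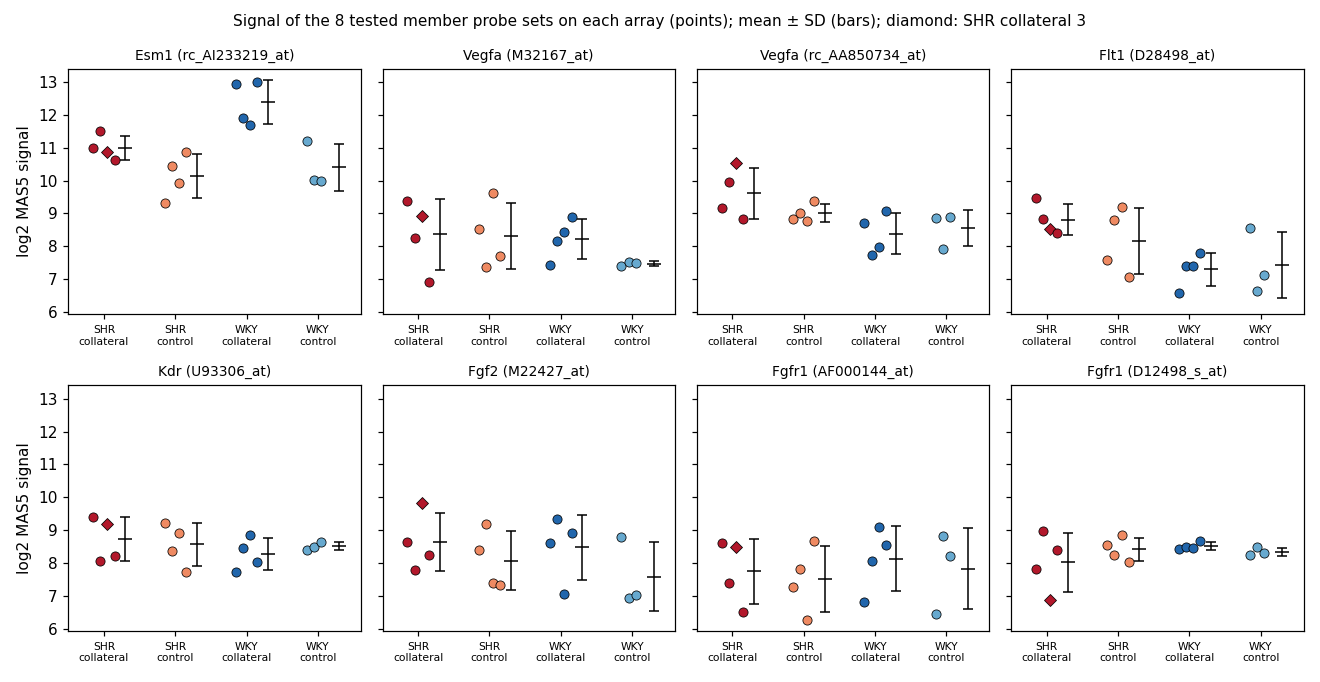
log2 MAS5 signal (vertical axis) of the 8 tested member probe sets on each of the 15 arrays, by group, with points for arrays, bars for mean ± SD and a diamond for SHR collateral 3. In the Esm1 panel the 4 WKY collateral arrays lie above every other array, at signals of 3324 to 8275, and in the Flt1 panel the 4 SHR collateral arrays lie above the 4 WKY collateral arrays.

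The fitted log2 difference of Esm1 between collateral and control arteries was 0.85 ± 0.39 in SHR (SE, 4 against 4 arrays), a 1.81-fold level with a 95% interval of 0.03 to 1.68 on the log2 scale, and 0.90 without SHR collateral 3. In WKY it was 2.0 ± 0.42 (SE, 4 against 3 arrays), a 3.99-fold level with an interval of 1.11 to 2.88. By unadjusted p, Esm1 ranked 1 of 6512 tested probe sets in WKY and 210 in SHR, which describes the contrast that drew attention to it. The SHR change minus the WKY change was -1.14 ± 0.58, with an interval of -2.35 to 0.07 that includes 0. These changes share no arrays with each other. Averaged over both strains the difference was 1.42 ± 0.29, and leaving out any 1 array gave values between 1.29 and 1.63. Such values lay between 0.58 and 1.10 in SHR, between 1.78 and 2.40 in WKY, and between -1.55 and -0.89 for the SHR change minus the WKY change. None of these differences passed limma's adjustment over all probe sets, with adjusted p of 0.949 in SHR, 1 in WKY and 0.652 for the mean of both.

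Between strains, Esm1 signals overlapped in control arteries and stood lower in SHR in collaterals. In controls the log2 difference, SHR minus WKY, was -0.26 ± 0.42 (SE), with an interval of -1.15 to 0.63, and it was 0.15 without WKY control 1 and 0.01 without SHR control 1, on the other side of 0. In collaterals it was -1.40 ± 0.39, a 0.379-fold level with an interval of -2.22 to -0.58, and -1.35 without SHR collateral 3. The SHR collaterals, at 1573 to 2924, lay below all WKY collaterals, at 3324 to 8275. Esm1 was the only member of 8 tested that was lower in SHR collaterals without overlap, as 1.55% of all tested probe sets were. It was also the only one higher in WKY collaterals than in WKY controls without overlap, as 3.61% were, and 0 of 8 were lower there (3.09% of all). In SHR, 0 of 8 were free of overlap between collateral and control arteries (0.906% of all were higher and 0.814% lower), and between strains in control arteries also 0 of 8 (4.85% higher and 3.72% lower). Both strain contrasts use the arrays of the collateral contrasts, so these values are not independent of each other.

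Endothelial markers were summed on each array as the background of an endothelial gene. The 9 measured of 19 listed markers, none of them listed at 0, had a summed signal of 7332 to 12804 in SHR collateral and 8970 to 10536 in SHR control arteries, and of 9106 to 17840 in WKY collateral and 12457 to 16168 in WKY control arteries. Taken relative to that sum on the same array, the Esm1 log2 difference of collateral over control was 0.76 in SHR and 1.99 in WKY. The strain difference in collaterals was -0.92 on that scale, and the array ranges, -2.79 to -1.92 in SHR and -2.42 to -0.14 in WKY, overlapped. In control arteries the strain difference turned to 0.31 on that scale. Of the markers, Pecam1, an adhesion molecule of endothelial cells, had log2 differences between collateral and control arteries of 0.36 ± 0.40 in SHR and 0.43 ± 0.44 in WKY, and the endothelial nitric oxide synthase Nos3 had -0.15 ± 0.55 and -0.51 ± 0.60 in the same order (SE). Icam2, an adhesion molecule of endothelial cells and platelets, had 1.26 ± 0.57 in SHR and -0.40 ± 0.61 in WKY. For SHR over WKY, Icam2 stood at -1.96 ± 0.57 in collaterals and at -3.62 ± 0.61 in controls, where limma called it lower (adjusted p 0.0434). Its signal was 215 to 824 in SHR collateral, 53 to 404 in SHR control, 672 to 2643 in WKY collateral and 1788 to 2640 in WKY control arteries. The 9 markers had a median log2 difference of SHR over WKY of -0.41 in collaterals and -0.67 in controls. In each vessel type 6 of them were below 0 and 3 above. At an unadjusted limma p under 0.05, 2 were lower and 0 higher in collaterals (7.62% of all tested in either direction). In controls 3 were lower and 0 higher (6.46%). The part of endothelial content in the Esm1 values was not tested.

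Vegfa, the ligand, was read by 2 tested probe sets. By rc_AA850734_at its signal was 571, 980, 1478 and 451 in SHR collateral arteries, against 450, 517, 439 and 667 in SHR control arteries. By the same probe set it was 416, 214, 253 and 540 in WKY collateral arteries, against 461, 242 and 478 in WKY control arteries. The highest 2 values were SHR collaterals, 1 of them SHR collateral 3, and all groups overlapped. The log2 difference of SHR over WKY was 1.23 ± 0.43 in collaterals (SE, 4 against 4 arrays, interval 0.33 to 2.14) and 0.44 ± 0.47 in controls (interval -0.54 to 1.42). Without SHR collateral 3 the first was 0.93. Between collateral and control arteries this probe set had 0.61 ± 0.43 in SHR, or 0.31 without SHR collateral 3, and -0.18 ± 0.47 in WKY.

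By M32167_at, Vegfa had a signal of 667, 302, 487 and 119 in SHR collateral arteries, against 369, 165, 788 and 209 in SHR control arteries. It had 171, 288, 346 and 475 in WKY collateral arteries, against 168, 183 and 180 in WKY control arteries. The 3 WKY controls were close together and the other groups spread widely across them. The log2 difference of SHR over WKY in collaterals was 0.13 ± 0.58, with an interval of -1.08 to 1.35 that includes the 1.23 of rc_AA850734_at. Leaving out 1 array gave values between -0.21 (without SHR collateral 1) and 0.62 (without SHR collateral 4), with -0.05 without SHR collateral 3, so its direction rests on single arrays. Collateral over control stood at 0.06 ± 0.58 in SHR (-0.13 without SHR collateral 3) and 0.76 ± 0.62 in WKY. The 2 dim probe sets of Vegfa had signals of 55.2 to 294 (L20913_s_at) and 8.6 to 262 (M32167_g_at) over all arrays, with their highest values on SHR collateral 3.

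Flt1, the receptor that can act as a trap, had its highest group mean in SHR collaterals. Its signal (D28498_at) was 705, 452, 370 and 337 in SHR collateral arteries, against 193, 443, 583 and 134 in SHR control arteries. It was 95, 171, 171 and 220 in WKY collateral arteries, against 379, 99.3 and 138 in WKY control arteries. All 4 SHR collaterals lay above all 4 WKY collaterals, and every other pair of groups compared overlapped. The SHR collaterals stood at the 40.2th to 68.1th percentile of their arrays and the WKY collaterals at the 30.9th to 44.9th. The probe set thus passed the low-signal filter through SHR arrays, and WKY arrays by themselves would not have met it. The lack of overlap is therefore a description only. The log2 difference of SHR over WKY in collaterals was 1.51 ± 0.56 (SE, interval 0.34 to 2.68), a 2.84-fold level, and 1.60 without SHR collateral 3. Among all tested probe sets, 2.07% were higher in SHR collaterals without overlap. In control arteries the strain difference was 0.72 ± 0.60, with an interval of -0.54 to 1.99. Collateral over control stood at 0.64 ± 0.56 in SHR (0.73 without SHR collateral 3) and at -0.14 ± 0.60 in WKY, and the difference of these was 0.78 ± 0.82. The SHR value was 0.28 without SHR control 4 and 0.98 without SHR control 3. The WKY value turned to 0.42 without WKY control 1 and to 0.10 without WKY collateral 1.

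Kdr, the main signalling receptor for VEGF, had signals that overlapped between all groups compared. Its signal (U93306_at) was 682, 269, 590 and 299 in SHR collateral arteries, against 601, 334, 483 and 214 in SHR control arteries. It was 214, 351, 464 and 261 in WKY collateral arteries, against 337, 359 and 401 in WKY control arteries. The SHR arrays spread more widely than the WKY control arrays in both vessel types. Log2 differences were 0.16 ± 0.44 in SHR (0.00 without SHR collateral 3) and -0.24 ± 0.47 in WKY for collateral over control. For SHR over WKY they were 0.46 ± 0.44 in collaterals (0.30 without SHR collateral 3) and 0.06 ± 0.47 in controls. The SHR value of collateral over control turned to -0.12 without SHR control 4, and the strain value in controls to -0.16 without SHR control 1. The interval in collaterals ran from -0.47 to 1.38 and overlapped that of Flt1, 0.34 to 2.68. Whether the strain differences of these receptors differ was not tested.

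**Figure D2:**
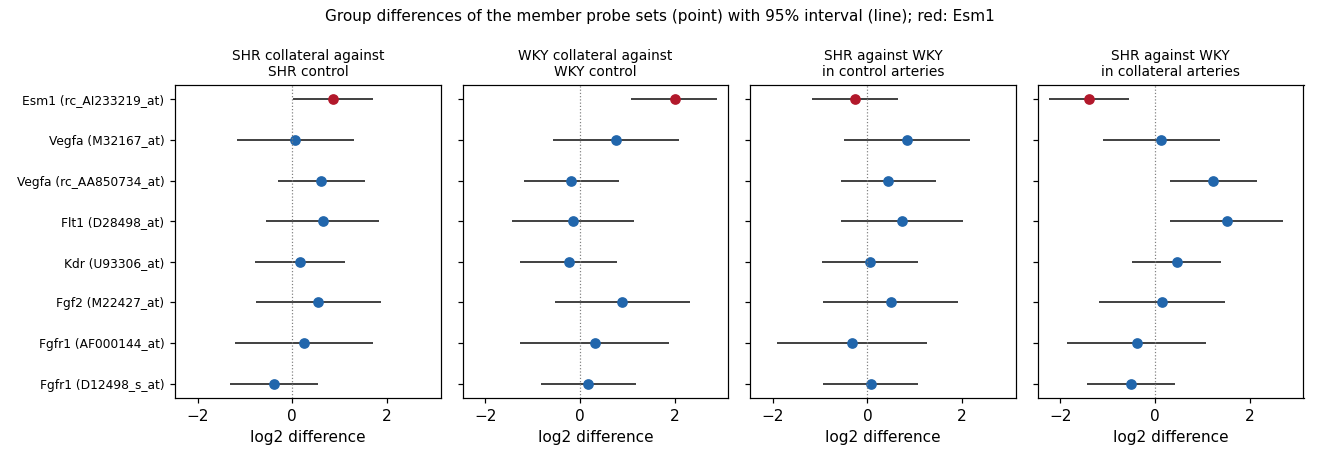
log2 difference (horizontal axis) with its 95% interval for the 8 tested member probe sets in 4 comparisons, collateral over control within each strain and SHR over WKY within each vessel type. Esm1 (red) stands at 2.0 in WKY and 0.85 in SHR collaterals over controls, and SHR over WKY collaterals Esm1 stands at -1.40 while Flt1 stands at 1.51.

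Fgf2, a growth factor of endothelial and smooth muscle cells, spread widely within every group. Its signal (M22427_at) was 401, 220, 916 and 302 in SHR collateral arteries, against 335, 584, 169 and 160 in SHR control arteries. It was 389, 649, 134 and 481 in WKY collateral arteries, against 443, 124 and 130 in WKY control arteries. The highest value was that of SHR collateral 3. Collateral over control stood at 0.55 ± 0.62 in SHR (0.15 without SHR collateral 3) and at 0.89 ± 0.67 in WKY (1.5 without WKY control 1), with intervals of -0.75 to 1.85 and -0.51 to 2.30. Strain differences were 0.15 ± 0.62 in collaterals (-0.26 without SHR collateral 3 and -0.33 without WKY collateral 3) and 0.49 ± 0.67 in controls. The dim probe set X07285cds_s_at ran from 45.1 to 224 and had its highest values, 224 and 204, in SHR control arteries.

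Fgfr1, a receptor tyrosine kinase for FGF ligands, was read by 2 tested probe sets, one of them with little spread in the WKY groups. D12498_s_at gave 227, 502, 119 and 337 in SHR collateral arteries, against 374, 303, 457 and 262 in SHR control arteries. It gave 343, 363, 355 and 410 in WKY collateral arteries, against 303, 359 and 313 in WKY control arteries. Its spread in WKY collaterals, an SD of 0.11 on the log2 scale (n = 4), was among the smallest of the members, while in SHR collaterals it was 0.89, and its lowest value was on SHR collateral 3. Collateral over control stood at -0.39 ± 0.43 in SHR, or -0.02 without SHR collateral 3, and at 0.18 ± 0.47 in WKY. The strain difference in collaterals was -0.50 ± 0.43, or -0.12 without that array, and 0.07 ± 0.47 in controls.
AF000144_at ranged from 90.7 to 391 in SHR collateral, 77.1 to 409 in SHR control, 111 to 552 in WKY collateral and 87.1 to 451 in WKY control arteries, and all groups overlapped. Its log2 differences of collateral over control were 0.24 ± 0.69 in SHR and 0.31 ± 0.74 in WKY (SE). Without single arrays the SHR value ran from -0.17 (without SHR control 3) to 0.66 (without SHR collateral 4), and the WKY value from -0.39 (without WKY control 1) to 0.80 (without WKY control 2). Neither kept its direction. S54008_i_at did not exceed 64.9 on any array.

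Across the 8 tested probe sets, limma called 0 at a Benjamini-Hochberg adjusted p of 0.05 in any of the 6 comparisons. The background over all 6512 tested probe sets was 0% called in 5 of them and 0.0307% in SHR against WKY control arteries. At an unadjusted p under 0.05 the members had 1 of 8 (Esm1) in SHR collateral against control arteries, where 3.76% of all tested probe sets reached it. That member no longer reached it without SHR control 1 (0.58, unadjusted limma p 0.161), SHR control 3 (0.78, 0.0904), SHR collateral 1 (0.86, 0.0649) or SHR collateral 2 (0.68, 0.126). They had 1 of 8 (Esm1) in WKY collateral against control arteries, where 3.16% reached it, and 1 of 8 (Esm1) in the mean of both strains, where 5.11% did. In SHR against WKY collaterals they had 3 of 8 (Esm1 lower, Flt1 and Vegfa rc_AA850734_at higher), where 7.62% did, and limma's adjusted p was 0.328 for Esm1, 0.549 for Flt1 and 0.517 for that Vegfa probe set. This count is a description only, since Esm1 was named from these data and Flt1 passed the filter through SHR arrays. The other tested Vegfa probe set, M32167_at, stood at 0.13 there (unadjusted limma p 0.819). Without SHR collateral 1, Flt1 stood at 1.29 with an unadjusted limma p of 0.0511. The members had 0 of 8 in control arteries, where 6.46% did, and 0 of 8 for the SHR change minus the WKY change, where 1.9% did. The median log2 difference of the 8 was 0.40 in SHR collateral against control arteries (0.06 over all tested), 0.24 in WKY (0.00), 0.14 in SHR against WKY collaterals (0.12) and 0.26 in SHR against WKY controls (0.02).

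Esm1 and Flt1 were set side by side because each separated SHR from WKY collaterals, in opposite directions, which fixes the separation of their ratio in collaterals. The log2 ratio of Esm1 to Flt1 signal on the same array averaged 2.19 ± 0.49 in SHR collateral (SD, n = 4), 1.98 ± 1.3 in SHR control, 5.10 ± 0.94 in WKY collateral and 2.96 ± 0.38 in WKY control arteries (n = 3). Its range was 1.52 to 2.69 in SHR collaterals, against 4.28 to 6.36 in WKY collaterals. The levels of different probe sets cannot be compared, so that ratio is read between groups only. As a description over the 15 arrays, which share groups and scaling, the Spearman correlation of Esm1 was 0.36 with Fgf2 M22427_at and -0.50 with Kdr, and lay between -0.13 and 0.20 for the other 5 probe sets.

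**Figure D3:**
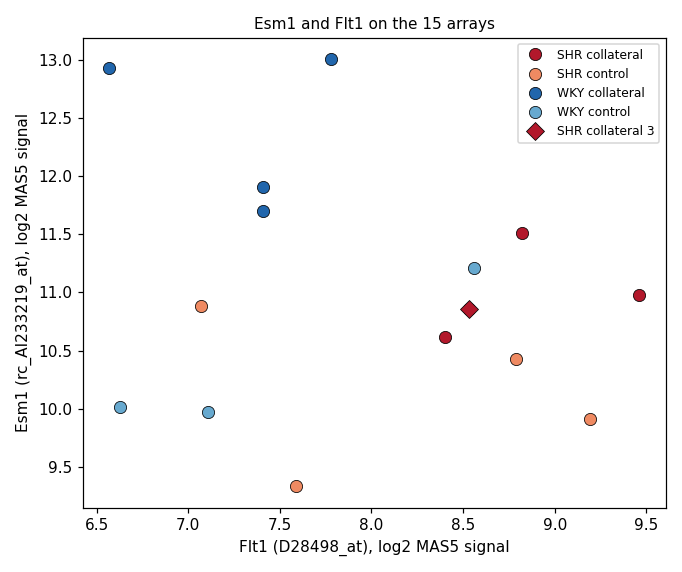
log2 MAS5 signal of Esm1 (vertical axis) against that of Flt1 (horizontal axis) on each of the 15 arrays, coloured by group, with a diamond for SHR collateral 3. The 4 SHR collaterals lie at the lower right of the 4 WKY collaterals, without overlap on either axis, and the control arrays of both strains are spread along the Flt1 axis.

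The genes whose pattern was most like that of Esm1 were sought among 5273 other named and tested probe sets, by Spearman correlation over the 15 arrays. They were Dio3, a deiodinase that inactivates thyroid hormone (0.79), Myadm, a membrane protein (0.78), Gabrg3, a GABA receptor subunit (0.77), Ptpn2, a tyrosine phosphatase (0.76), and fibronectin, Fn1 (0.76). Their Pearson correlations in the same order were 0.73, 0.45, 0.71, 0.76 and 0.51, and without SHR collateral 3 (14 arrays) the Spearman values were 0.76, 0.84, 0.83, 0.82 and 0.83. Fn1 had a geometric mean signal of 15400 in SHR collateral, 15700 in SHR control, 24500 in WKY collateral and 18700 in WKY control arteries. Gabrg3 was dim, at 88 to 237 in SHR collateral, 73 to 104 in SHR control, 135 to 400 in WKY collateral and 90 to 105 in WKY control arteries. The 40th percentile was at least 141.6 on every array, so Gabrg3 passed the filter through collateral arrays only. Its likeness to Esm1 is therefore a description only. Furthest in the other direction were the receptor phosphatase Ptprs (-0.85), the homeobox gene Hoxa5 (-0.82) and the steroid hydroxylase Cyp21a1 (-0.79). These are the extremes of many correlations over arrays in 4 groups.

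The surrounding pathway was described with 14 gene lists, 108 tested genes in all, and limma called 0 of the 108 in each of the 6 comparisons. In WKY collateral against control arteries 2 were higher and 1 lower at an unadjusted p under 0.05, with a list-wide median of -0.04 (0.00 over all tested, of which 3.16% reached that p). In SHR there were 3 higher and 3 lower, with a median of -0.12 (0.06 over all, 3.76%). For SHR against WKY in collaterals there were 1 higher and 13 lower, with a median of 0.08 (0.12 over all, 7.62%), and in control arteries 3 higher and 10 lower, with a median of -0.04 (0.02 over all, 6.46%). Among the lower ones was the phosphatase Dusp1, an early-response gene, at -1.51 ± 0.38 in collaterals and -1.99 ± 0.41 in controls.

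Among other ligands and receptors, 1 of 3 VEGF ligands on the array passed the filter, Vegfd, at 0.48 ± 0.51 in SHR and 0.27 ± 0.56 in WKY for collateral over control. The co-receptor Nrp1, which binds VEGF beside Kdr, had a log2 difference of SHR over WKY of 0.49 ± 0.30 in collaterals and 0.66 ± 0.32 in controls, and -0.40 ± 0.30 and -0.23 ± 0.32 for collateral over control in SHR and WKY. Of the FGF ligands, 6 of 9 on the array passed the filter and 0 had an unadjusted p under 0.05 in any of the 4 comparisons of groups. Kl, the FGF co-receptor klotho, stood at 1.60 ± 0.56 in SHR collateral against control arteries and at 0.39 ± 0.60 in WKY. Its signal was 147 to 538 in SHR collateral, 55 to 213 in SHR control, 185 to 340 in WKY collateral and 99 to 265 in WKY control arteries.

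Heparan sulphate proteoglycans, which hold FGF and VEGF at the cell surface, had 9 tested genes and medians of -0.10 in SHR and -0.28 in WKY for collateral over control. Syndecan 4 (Sdc4), a cell surface co-receptor for FGF, stood lower in SHR, at -0.85 ± 0.28 in collaterals and -1.14 ± 0.31 in controls. Its signal was 9300 to 18052 in SHR collateral against 19410 to 29856 in WKY collateral arteries. In control arteries it was 10040 to 22798 in SHR against 27341 to 33288 in WKY. The strains overlapped in neither vessel type. Of all tested probe sets, 1.55% were lower in SHR collaterals without overlap, and 3.72% in SHR controls. Sdc4 had the smallest p of its list in both comparisons, with limma's adjusted p at 0.517 in collaterals and 0.263 in controls. Among inhibitors of receptor signalling, Dusp6, a phosphatase that switches off ERK, stood at -1.04 ± 0.43 for SHR over WKY in collaterals and -0.69 ± 0.46 in controls.

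Genes known to be enriched in endothelial tip cells had 6 tested members. In WKY collateral against control arteries 1 of them was higher and 0 lower at an unadjusted p under 0.05. That p was reached by 3.16% of all tested probe sets. The higher gene was the urokinase receptor Plaur, which helps cells break down matrix. For collateral over control it stood at 1.83 ± 0.43 in WKY and 0.67 ± 0.40 in SHR. Plaur also stood higher in SHR than in WKY controls, where Esm1 overlapped, with a signal of 630 to 1461 in SHR against 244 to 478 in WKY and a log2 difference of 1.3 ± 0.43. Its groups overlapped between strains in collaterals, with a signal of 808 to 2937 in SHR collateral and 784 to 1647 in WKY collateral arteries. The list's other members included Angpt2, a ligand that loosens vessel walls, at -0.61 ± 0.40 in WKY, and adrenomedullin, Adm, a vasodilator peptide, at -1.43 ± 0.61 in SHR and -1.16 ± 0.66 in WKY. The median of the 6 was 0.16 in SHR and -0.22 in WKY. Of the 6, 5 were below 0 in WKY. In SHR 1 was below 0, and it had an unadjusted limma p under 0.05 (3.76% of all tested). Of 16 tested genes induced by VEGF in endothelial cells, 1 was higher, again Plaur, which is in both lists, and 1 was lower in WKY collateral against control arteries at an unadjusted p under 0.05 (3.16% of all tested), with a median of -0.62. In SHR against WKY collaterals 7 were lower and 0 higher, with a median of -0.61 (0.12 over all tested, of which 7.62% reached that p in either direction). In SHR against WKY controls 6 were lower and 1 higher, with a median of -0.76 (0.02 over all, 6.46%), so the lower SHR values were present in both vessel types. That list holds early-response genes such as Nr4a3, which earlier results of these data had already shown. For SHR over WKY, Nr4a3 stood at -4.14 ± 0.78 in collaterals and -3.3 ± 0.84 in controls.

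Hypoxia factors and targets, the usual inducers and companions of Vegfa, had 16 tested genes with medians of -0.14 in SHR and 0.11 in WKY for collateral over control. The glucose transporter Slc2a1 stood at 0.77 ± 0.33 in WKY, with a signal of 1625 to 2324 in WKY collateral against 950 to 1425 in WKY control arteries, and its SHR change minus its WKY change was -0.96 ± 0.45. Heme oxygenase Hmox1 stood at 1.69 ± 0.43 for SHR over WKY in collaterals and 1.87 ± 0.46 in controls.

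**Figure D4:**
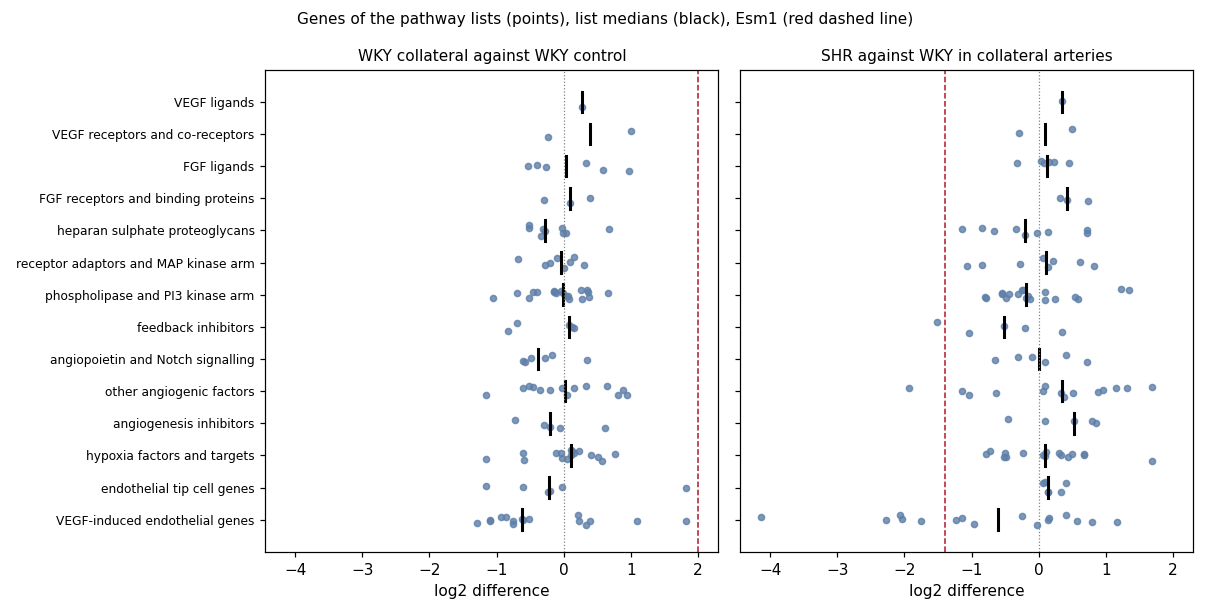
log2 difference (horizontal axis) of each tested gene of the 14 pathway lists (points) with the list median (black bar), for WKY collateral over control arteries and for SHR over WKY collaterals; some genes are in more than 1 list. The red dashed line marks Esm1, at 2.0 and -1.40, and the point nearest to it among tip cell genes in WKY is Plaur at 1.83.

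Marker lists of other cell types were set beside the strain comparisons, and limma called 0 of their genes. Of 12 macrophage markers, 9 were on the array and 7 tested, with a summed signal of 17277 to 32842 in SHR collateral against 4992 to 20039 in WKY collateral arteries, and a median log2 difference of 1.38. In control arteries the macrophage sum was 5777 to 45711 in SHR against 3507 to 6131 in WKY, with a median of 1.28. Of 10 adipocyte markers 7 were tested, with a summed signal of 8815 to 48004 in SHR collateral against 4541 to 17888 in WKY collateral arteries, and a median of 1.22, or 0.38 in controls. The summed signals of both lists overlapped between SHR and WKY, in collaterals and in controls. In collaterals 7 macrophage markers were above 0 and 0 below, with 4 higher at an unadjusted limma p under 0.05 (7.62% of all tested). In controls 6 were above 0 and 1 below, with 3 higher at that p (6.46%). Adipocyte markers had 6 above 0 and 1 below in each vessel type, with 1 higher at that p in collaterals. The 10 smooth muscle genes had a median of -0.73 in collaterals and -0.14 in controls, with Myh11 at -1.21 ± 0.55 and Acta2 at -0.34 ± 0.37 in collaterals. In collaterals 10 were below 0 and 0 above, with 2 lower at that p. In controls 7 were below 0 and 3 above, with 0 at that p. Flt1 is known from monocytes as well as endothelium. The part of these cells in the Esm1, Flt1 and Vegfa differences was not tested.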

How the data were processed

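RNA of rat mesenteric arteries was read on 15 arrays, whose titles give the 4 groups. The deposited signal values, 1 per probe set and array on a linear scale, are the authors' MAS5 output from GCOS, per the submitters' processing notes, which name no versions. Trimmed means were alike on all arrays, so arrays compare only where total RNA does, and such scaling can lift dim probe sets on an array with little sample RNA. Detection calls were not used here.

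Signals below 1 (12 values) were set to 1 and taken to log2. Of 8799 probe sets, 59 array controls were left out, and 6512 stood at or above the 40th percentile of 3 or more arrays. Symbols came from the platform annotation: of 8740 probe sets 7006 had 1 symbol, 308 several and 1426 none, and 6985 matched a gene table by identifier. Files and annotation gave no build, so only promoter windows have positions.

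Group means were fitted with limma 3.58.1 in R 4.3.3 over all 15 arrays, with a variance trend (degrees of freedom were 11 residual and 7.19 prior). P-values were Benjamini-Hochberg adjusted over all 6512 probe sets. The fit was also run on simulated data with normal noise and no array that stood apart, which does not bear on the member differences. For a gene with several probe sets, lists use the one with the highest mean. The number of arrays limits precision. A typical (median) standard error was 0.54 for WKY and 0.50 for SHR collaterals against controls. Named genes were the members, per comparison the 6 highest and 6 lowest pathway genes by moderated t, the 2 smallest p of each list, the 5 most and 3 least like Esm1, and 5 fixed markers; the text gives part of these. Members and lists were chosen with earlier results of these data known.

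Alternatives changed the normalization (quantile, or equal medians), the offset (64 added before log2), the filter (none, or the 60th percentile) and the fit (no trend, weights per array, only arrays compared). Others used the replicate number as a block over both strains or within strain, left out each array, or took the mean of a gene's probe sets. Esm1 relative to summed endothelial markers was added after seeing the data.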

Additional observations from a re-analysis of the deposited data

How the results depend on the processing

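Under 26 alternative settings, 15 of which each left out 1 array, 0 member probe sets were called in each of the 152 counts over the 6 comparisons, as in the values reported. The counts without 1 array lay between 0 and 0. With the replicate number as a block, over both strains or within strain, the count was 0 as well. The block put the Esm1 collateral change at 1.88 in WKY and 0.85 in SHR, and within strain at 1.79 and 0.85. The numbers were not taken as pairs in the main fit, since the labels do not say whether arrays of one number share an animal. The correlation of deviations from the group means between collateral and control arrays of the same number ranged from -0.070 to 0.306 over 7 pairs. Collaterals 1, 2 and 3 of SHR and 1 and 3 of WKY correlated best with the control of their own number. SHR collateral 4 and WKY collateral 2 did not, so a pairing is not settled by this check. Of 1180 alternative values for single probe sets, 1 moved by more than the spread between replicates. That was the SHR change minus the WKY change of Vegfa rc_AA850734_at, at 0.05 with the mean of both tested Vegfa probe sets, against 0.79. Smaller shifts counted as unmoved even where the direction was not kept. That was so in 9 of 24 alternatives for the mean collateral change of Kdr. It was also so in 9 of 24 for the SHR change minus the WKY change of Fgfr1 AF000144_at. For Esm1 in SHR against WKY collaterals it was 0 of 25. Esm1 in SHR against WKY collaterals lay between -1.63 and -1.19 without any 1 array and between -1.64 and -0.92 under the other alternatives, and Flt1 between 1.27 and 1.67 and between 1.20 and 1.80. Of the differences with an unadjusted limma p under 0.05, Esm1 in SHR no longer reached it with quantile normalization (0.81), equal array medians (0.67) or no variance trend (0.85). Flt1 in collaterals did not with quantile normalization (1.21), and Vegfa rc_AA850734_at did not with the mean of the gene's probe sets (0.68). Dim probe sets limit the rest: 3 of the 8 tested lay under the 40th percentile on 6 or more arrays.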
